A study of Mus musculus with 8 samples.

Results

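Transmitter genes of the deep cerebellar nuclei and the adjoining brainstem were followed in 8 bulk RNA-seq libraries of whole mouse cerebellum. They comprise 10 of the 56691 genes of the count table, *Slc17a6*, *Slc6a5*, *Chat*, *Slc5a7*, *Slc18a3*, *Tph2*, *Slc6a4*, *Th*, *Dbh* and *Slc6a2*. The genes were chosen by their transmitter, as a measure of how much deep nucleus and brainstem tissue each dissection held, at a time when levels in these libraries, such as the high *Slc17a6* level of 1 *Atm*-WT mouse, were already known. Their levels by mouse are therefore a description, and the tests between genotypes below are no independent support for any pattern.

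The study asked how loss of the kinase ATM alters the cerebellum. Libraries came from 4 *Atm*-WT mice (*Atm* +/+, named 2M, 7M, 13M and 32M) and 4 *Atm*-KO mice (*Atm* -/-, named 1M, 7F, 11M and 12M) of the strain B6;129S4-Atmtm1Bal/J, aged 6 months. *Atm*-KO mice of this strain lack ATM in every cell from conception, both genotypes came out of the same breeding colony, and no treatment was given for these libraries in the labels. Brains were perfused with saline, and RNA was made from frozen cerebellum, 1 library a mouse.

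Libraries held 65967130 to 88030300 counts, with the smallest in *Atm*-KO 12M. *Atm*, the targeted gene, was measured at 41.1 to 51.1 CPM (counts scaled by the effective library size after TMM normalization, so that libraries of different depth can be compared) in the *Atm*-KO libraries and at 59.0 to 80.0 CPM in *Atm*-WT, so the genotypes did not overlap, though a count per gene cannot show which exons the reads came from. Low counts were even numbers in 67.3% to 73.3% of cases in each library, as were 45 of the 53 counts of the 10 genes between 1 and 500, and whether 1 count stands for a read or a read pair was not settled. *Atm*-KO 12M stood apart from the other mice in *Slc17a6* and in many genes that moved with it, as set out below.

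Neurons of the deep cerebellar nuclei carry the output of the cerebellum. Many are glutamatergic and load vesicles through VGLUT2, the product of *Slc17a6*, whereas granule cells in the adult rely chiefly on VGLUT1. Acetylcholine, serotonin and noradrenaline reach the cerebellum on axons whose cell bodies lie in the brainstem, in the vestibular and pedunculopontine region, the raphe nuclei and the locus coeruleus. As messenger RNA stays mainly in cell bodies, the synthetic enzymes and transporters of these systems are scarce in cerebellar tissue unless brainstem is taken along. In bulk tissue, fewer cells of a type and less RNA per cell cannot be told apart.

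The 200 bases before the canonical start site are shown for *Slc17a6*, the gene that set 12M apart, for *Tph2* and *Slc6a4*, which were both highest in 11M, and for *Dbh*, which was highest in 7F. They were read from GRCm39 on the gene's own strand and run 5′ to 3′. They lie at chr7:51271234-51271433 (*Slc17a6*, plus strand), chr10:115020928-115021127 (*Tph2*, minus strand), chr11:76888703-76888902 (*Slc6a4*, plus strand) and chr2:27055045-27055244 (*Dbh*, plus strand). Capitals mark TATAAA or its reverse complement.
Slc17a6: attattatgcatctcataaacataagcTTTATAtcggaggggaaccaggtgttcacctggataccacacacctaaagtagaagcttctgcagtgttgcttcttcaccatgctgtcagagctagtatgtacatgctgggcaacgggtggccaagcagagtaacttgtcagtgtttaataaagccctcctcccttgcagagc
Tph2: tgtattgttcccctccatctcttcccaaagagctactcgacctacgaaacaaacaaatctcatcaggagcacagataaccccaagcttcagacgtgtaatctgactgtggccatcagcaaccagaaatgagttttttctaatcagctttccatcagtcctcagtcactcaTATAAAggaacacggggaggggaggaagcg
Slc6a4: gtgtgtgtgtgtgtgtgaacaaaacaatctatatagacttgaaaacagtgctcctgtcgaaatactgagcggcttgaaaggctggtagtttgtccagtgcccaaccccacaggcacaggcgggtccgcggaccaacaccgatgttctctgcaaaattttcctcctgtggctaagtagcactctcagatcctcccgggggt
Dbh: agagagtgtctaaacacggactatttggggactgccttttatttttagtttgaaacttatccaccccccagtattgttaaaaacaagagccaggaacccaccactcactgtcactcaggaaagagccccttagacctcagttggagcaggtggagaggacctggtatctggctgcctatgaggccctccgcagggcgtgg
Motifs were searched on both strands, TATAAA (the TATA box), TGACGTCA (the cAMP response element) and GGGCGG (the GC box), and none of the matches overlapped another motif. TATAAA occurred 30 bases before the start of *Tph2* and, on the reverse strand, 173 bases before that of *Slc17a6*, and in neither of the other windows. Of 21770 windows of the same length before protein-coding genes, 9.57% held TATAAA, 1.59% TGACGTCA and 34.8% GGGCGG. TGACGTCA and GGGCGG were in none of the 4 windows.

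All 10 genes passed the filter on low counts, but their levels differed greatly. Per kilobase of exon, *Slc17a6* was the highest at 13.3 ± 5.81 CPM per kb (SD, n = 8), followed by *Slc6a5* at 8.11 ± 0.835. *Th* followed at 0.771 ± 0.162 CPM per kb, and the other 7 genes lay between 0.0564 (*Chat*) and 0.492 (*Tph2*). *Slc17a6* exceeded *Slc6a5* in 7 of 8 mice and *Slc6a5* exceeded *Th* in 8 of 8. *Th* was above *Tph2* in 7 mice and *Slc6a2* above *Dbh* in 8, whereas *Tph2*, *Slc5a7* and *Slc6a2* could not be ordered beyond their spread, nor could *Dbh*, *Slc6a4*, *Slc18a3* and *Chat*, where each gene was above the next in 4 or 5 of 8 mice. Thus, *Slc6a5* was well expressed in every mouse and *Slc17a6* in all but 12M, where it was at 0.756 CPM per kb, *Th* was low but steady, and the other 7 genes were below 0.5 CPM in at least 1 mouse.

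**Figure D1:**
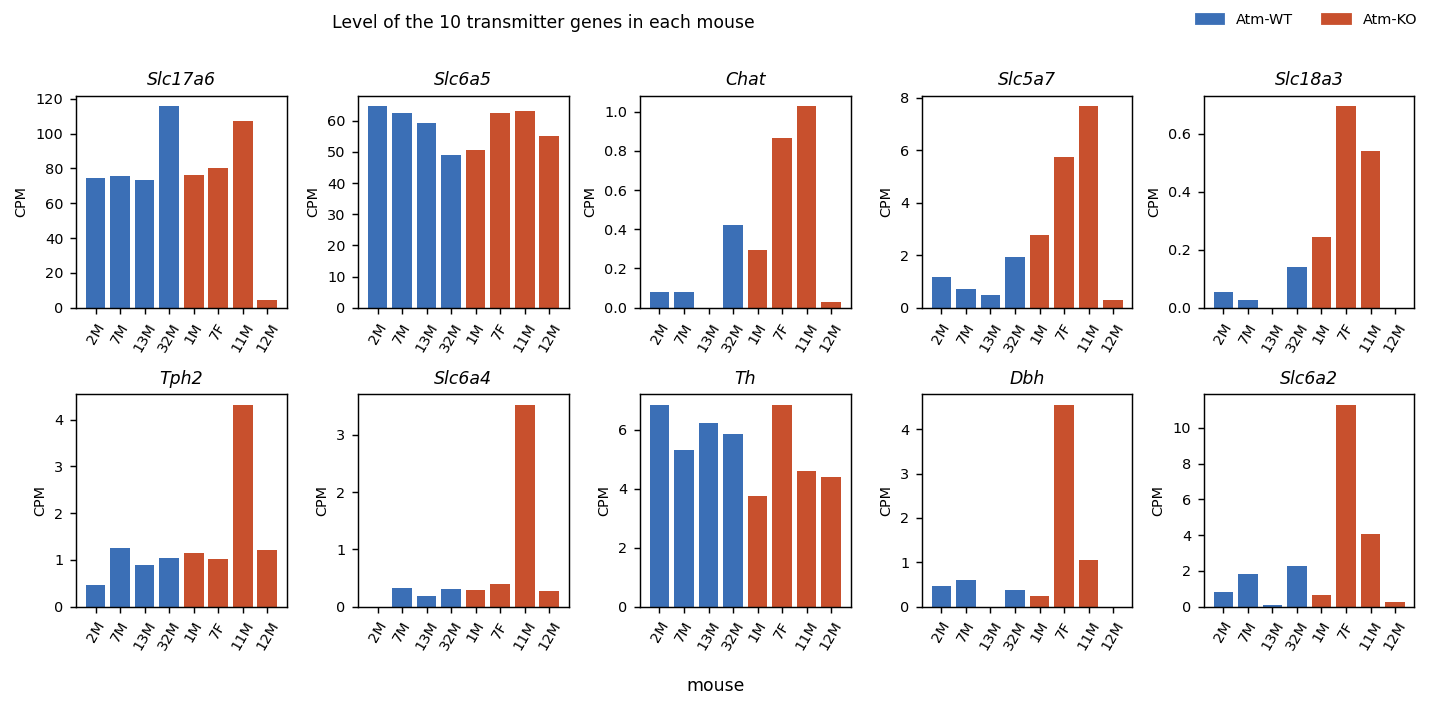
Level in CPM (vertical axis, from 0, scaled for each gene) of the 10 transmitter genes in each mouse, with 1 bar a library and bars coloured by genotype. *Slc17a6* is low in 12M alone, *Slc6a5* and *Th* differ little among mice, the acetylcholine genes are highest in 7F and 11M, *Tph2* and *Slc6a4* in 11M, and *Dbh* and *Slc6a2* in 7F.

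*Slc17a6* (chr7:51271434-51320867, plus strand), which encodes the vesicular glutamate transporter VGLUT2, was measured at 74.3, 75.9, 73.6 and 116 CPM in *Atm*-WT mice 2M, 7M, 13M and 32M. In *Atm*-KO mice 1M, 7F, 11M and 12M it was at 76.4, 80.1, 107 and 4.32 CPM. 12M thus kept 5.66% of the median of the other 7 mice, with 292 counts against 5628 to 9921, and the lowest of the others was 17.0-fold above it. 32M and 11M were the highest mice, 1 of each genotype, and the genotypes overlapped.

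The low value in 12M was shared with other genes. For 12M, 13304 protein-coding genes had a mean of at least 1 CPM in the other mice. Of these, 137 were more than 3-fold below every other mouse in 12M, against 0 to 5 such genes in each of the others. No protein-coding gene with at least 1 CPM in 12M was more than 3-fold above every other mouse. Among markers of deep nuclei neurons, *Lhx9*, a homeobox factor, was at 0.474 CPM in 12M and 12.9 to 19.2 elsewhere, and *Lhx2* was at 0 against 1.42 to 3.30 CPM. *Spp1*, which encodes osteopontin, was at 8.48 CPM against 17.3 to 28.4. On the other hand *Tbr1*, a factor of medial nucleus neurons, was at 0.725 CPM in 12M and 0.594 to 1.45 in the others, and *Lmx1a* was at 1.89 against 1.47 to 2.60. Only 3 of the 5 deep nuclei markers were therefore lowest in 12M. Whether *Slc17a6* stands for deep nuclei in these libraries was not tested.

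Some of these 137 genes, all known from dorsal midbrain, were picked out after the values were seen. Their drop in 12M is fixed by that choice and is a description only. The 137 also held genes not picked for that region, such as *Sst*, *Tac1* and *Drd2*, and the tissue source of the drop was not tested. *Tfap2d* was at 0 in 12M and 3.37 to 5.55 CPM elsewhere, and *Pou4f2* was at 0 against 0.943 to 4.53. *Cbln2* was at 0.237 CPM in 12M against 11.8 to 22.3, and *Meis2* at 1.21 against 19.1 to 35.0. *Pax7* was at 0 in 12M but also low in 13M at 0.140 CPM, and reached 5.02 in 32M, the mouse in which *Slc17a6* was highest. *Pou4f1* was at 0.0296 in 12M and likewise highest in 32M, at 4.13 CPM. A count of 0 in 12M allows a level of up to 0.0444 CPM (3 counts), for counting error only and if counts are independent. As most low counts were even, the reads of a pair may have been counted singly, and the limit would then be higher.

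**Figure D2:**
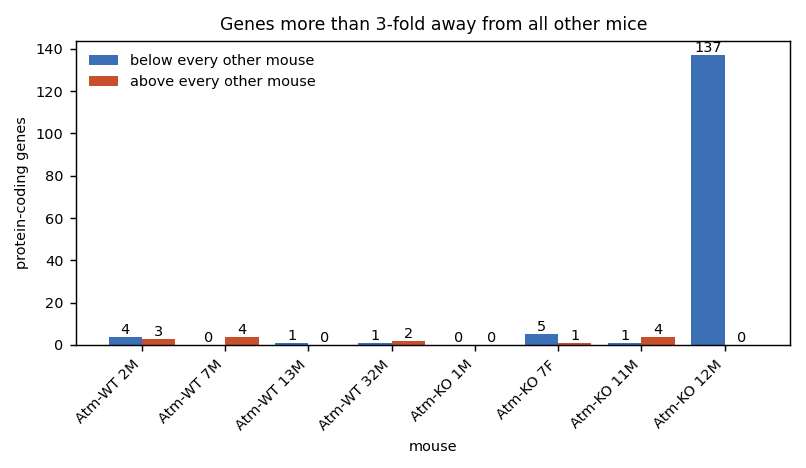
Number of protein-coding genes (vertical axis) that lay more than 3-fold below or above every other mouse, for each of the 8 mice. 12M had 137 genes below and 0 above, whereas the other mice had 0 to 5 below and 0 to 4 above.

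Markers of granule and Purkinje cells were not low in 12M, whereas those of oligodendrocytes were. The summed level of 5 granule cell markers in 12M was 128% of the median of the other mice (5919 CPM, the others 4095 to 4956), and that of 5 Purkinje cell markers was 103% (8641 CPM, the others 7617 to 9612). The 6 oligodendrocyte markers were all lowest in 12M and summed to 1926 CPM, or 58.6% of the median of the others, against 3056 to 4201. Their sum was highest in 32M (4201 CPM), as was *Slc17a6*. The 4 choroid plexus markers summed to 1161 CPM in 12M, within the range of 398 to 1483 of the other mice. The part of these cell types in the level of *Slc17a6* was not tested.

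The genes whose log2 CPM was most like *Slc17a6* over the 8 mice, of 13280 protein-coding genes compared, were *Kcnc2* (Pearson r 0.999), *Sertm1* (0.998), *Tacr1*, *Ankrd34c* and *Dlgap2* (each 0.997). *Kcnc2*, a potassium channel subunit, was at 3.42 CPM in 12M and 34.7 to 54.2 elsewhere, and *Tacr1*, the substance P receptor, was at 0 against 2.14 to 5.39. As 12M alone can set such a value, r was taken again over the other 7 mice and was 0.98, 0.95, 0.92, 0.90 and 0.95 in the same order. The same mice were used to pick these genes, so these values are no separate check. In those 7 mice, *Kcnc2* was also highest in 32M (54.2 CPM) and 11M (50.5 CPM).

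*Slc6a5* (chr7:49559894-49613604, plus strand), the plasma membrane glycine transporter of glycinergic neurons such as Golgi cells and some deep nucleus neurons, was far steadier. It was at 64.8, 62.6, 59.4 and 49.1 CPM in *Atm*-WT mice 2M, 7M, 13M and 32M, and at 50.7, 62.5, 63.1 and 55.2 CPM in *Atm*-KO mice 1M, 7F, 11M and 12M. Its highest mouse was 1.32-fold above its lowest, against 26.8-fold for *Slc17a6*, and 12M was above only 1M and 32M, at 88.4% of the median of the others. 32M, the highest mouse for *Slc17a6*, was the lowest for *Slc6a5*. The Golgi cell markers *Lgi2* and *Grm2* were at 142 and 16.7 CPM in 12M, with 164 to 209 and 14.2 to 21.3 in the others. Most like *Slc6a5* were *Copa* (r 0.944), *Pi4ka* (0.940), *Zcchc3* (0.939), *Hmcn1* (0.938) and *Wnk1* (0.937), and r over the 7 mice without 12M was 0.94 or 0.95 for each. These are the highest of 13280 genes compared over few mice, so such values can come from the selection alone. The 7 mice were also used to pick the genes and give no separate check.

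Among 13 further genes of glutamate and glycine handling, all tested, 12 had a mean of at least 1 CPM in the other mice. Of these 3 were more than 3-fold below every other mouse in 12M, the glycine receptor subunits *Glra1*, *Glra3* and *Glra4*, which were named after their values were seen. *Glra1* was at 0.429 CPM in 12M against 5.55 to 11.6, and *Glra3* at 0.859 against 8.97 to 22.5, with the highest value again in 32M, and *Glra4* at 0.0592. By contrast *Glrb*, the subunit shared by glycine receptors, was at 237 CPM in 12M and 241 to 321 elsewhere, and *Slc17a7*, which encodes VGLUT1, was highest in 12M at 421 CPM (309.8 to 356 in the others).

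**Figure D3:**
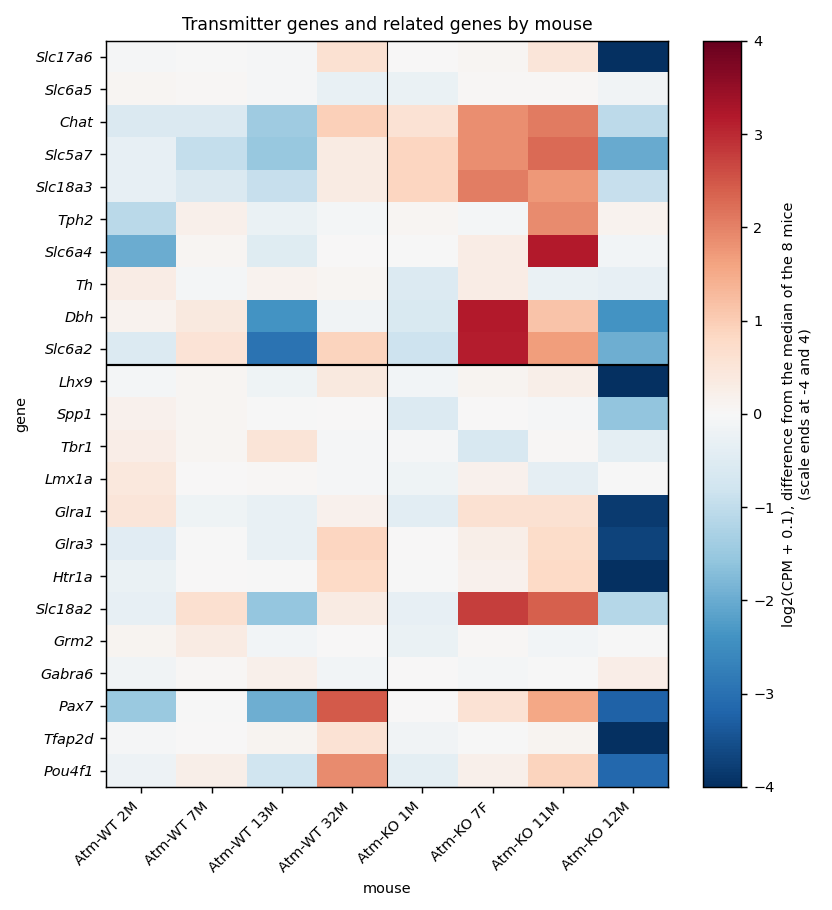
Difference of log2(CPM + 0.1) from the median of the 8 mice (colour, scale ending at -4 and 4) for the 10 transmitter genes (top), marker and receptor genes (middle) and midbrain genes chosen after their values were seen (bottom), in each mouse. *Slc17a6* shares its low value in 12M with *Lhx9*, *Glra1*, *Glra3*, *Htr1a* and the midbrain genes, but not with *Slc6a5*, *Tbr1*, *Lmx1a*, *Grm2* or *Gabra6*.

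The acetylcholine genes were scarce, and shared their highest mice. *Slc5a7* (chr17:54580020-54606076, minus strand), the high-affinity choline transporter, was at 1.17, 0.725, 0.466 and 1.94 CPM in *Atm*-WT mice 2M, 7M, 13M and 32M, and at 2.79, 5.73, 7.70 and 0.296 CPM in *Atm*-KO mice 1M, 7F, 11M and 12M. Thus 3 *Atm*-KO mice were above every *Atm*-WT mouse and 12M was below all of them.

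*Chat* (chr14:32129369-32187946, minus strand), the enzyme that makes acetylcholine, had 6, 6, 0 and 36 counts in the *Atm*-WT mice (0.0792, 0.0806, 0 and 0.420 CPM) and 24, 67, 80 and 2 counts in the *Atm*-KO mice (0.294, 0.865, 1.03 and 0.0296 CPM), in the same order. *Slc18a3* (chr14:32184395-32186807, minus strand), the vesicular acetylcholine transporter, lies within the span of *Chat* and shares no exonic base with it in the annotation. It had 4, 2, 0 and 12 counts in *Atm*-WT and 20, 54, 42 and 0 in *Atm*-KO mice (0.0528, 0.0269, 0, 0.140, 0.245, 0.697, 0.542 and 0 CPM). For each of these genes 7F and 11M were the highest mice, 32M was the highest *Atm*-WT mouse, and the genotypes overlapped through 12M and, for *Chat*, also 1M. *Litchi*, a gene on the opposite strand, covers 1816 exonic bases of *Slc18a3* and 164 of *Chat* and had at most 6 counts in any library, and whether reads were counted by strand is not given in the sources used here.

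Motor neuron markers were low. *Prph*, which encodes peripherin, was highest in 11M at 1.73 CPM (0.0233 to 0.749 in the others), *Calca* was highest in 11M and 7F at 1.74 and 1.69 CPM (0.403 to 0.980 in the others), and the defining markers *Isl1* and *Mnx1* were at most 0.284 and 0.0516 CPM. The 4 markers summed to 2.52 and 3.80 CPM in 7F and 11M and 0.548 to 1.49 CPM in the remaining mice. Their part in the acetylcholine genes was not tested.

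Of the serotonin genes, *Tph2* (chr10:114914546-115020927, minus strand), the neuronal enzyme that starts serotonin synthesis, was at 0.462, 1.26, 0.886 and 1.03 CPM in *Atm*-WT mice 2M, 7M, 13M and 32M, and at 1.15, 1.02, 4.32 and 1.21 CPM in *Atm*-KO mice 1M, 7F, 11M and 12M. *Slc6a4* (chr11:76888903-76923169, plus strand), the serotonin transporter, was at 0, 0.322, 0.186 and 0.303 CPM in the *Atm*-WT mice, and at 0.294, 0.387, 3.53 and 0.266 CPM in *Atm*-KO mice. Both were highest in 11M, *Tph2* by 3.42-fold and *Slc6a4* by 9.12-fold over the next mouse, and both were lowest in 2M. The other 3 *Atm*-KO mice lay within or close to the *Atm*-WT range, and 12M kept 118% (*Tph2*) and 87.9% (*Slc6a4*) of the median of the other mice. Hence the drop of *Slc17a6* in 12M had no counterpart in the serotonin genes.

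Raphe markers were not highest in 11M, where *Tph2* was. *Fev*, the factor that defines serotonin neurons, was at most 0.211 CPM (2M) and at 0.142 in 11M, and *Lmx1b* was highest in 7F at 1.74 CPM, with 1.34 in 11M. *En1* and *Gata3* were at 0.533 and 0.0592 CPM in 12M, against 2.97 to 5.71 and 1.39 to 3.69 in the other mice, and so were low in 12M as *Slc17a6* was. They were 2 of 3 raphe markers with a mean of at least 1 CPM in the other mice. The remaining marker was not more than 3-fold below every other mouse in 12M. In 11M *Fev*, *Lmx1b* and *Gata3* (3.44 CPM) were each second highest, and *En1* (2.97 CPM) was the lowest apart from 12M. The 5 markers summed to 11.1 CPM in 11M, within the range of 9.35 to 14.5 of the *Atm*-WT mice.

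The catecholamine genes split. *Th* (chr7:142443466-142484865, minus strand), the enzyme that starts catecholamine synthesis, was at 6.86, 5.33, 6.22 and 5.85 CPM in *Atm*-WT mice 2M, 7M, 13M and 32M, and at 3.76, 6.85, 4.62 and 4.41 CPM in *Atm*-KO mice 1M, 7F, 11M and 12M. *Th* varied by 1.83-fold over all mice, and 3 *Atm*-KO mice were below every *Atm*-WT mouse while 7F was not. *Th* is also transcribed in some Purkinje cells in the mouse.

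*Dbh* (chr2:27055245-27074212, plus strand), which turns dopamine into noradrenaline, was at 0.475, 0.591, 0 and 0.373 CPM in the *Atm*-WT mice and at 0.245, 4.56, 1.06 and 0 CPM in the *Atm*-KO mice. *Slc6a2* (chr8:93686707-93728295, plus strand), the noradrenaline transporter, was at 0.792, 1.80, 0.0699 and 2.29 CPM in *Atm*-WT and at 0.637, 11.3, 4.05 and 0.237 CPM in *Atm*-KO mice. Both were highest in 7F, the only mouse with F in its name and the only library with the Y-linked genes *Uty* and *Ddx3y* at 0 CPM (48.7 to 70.5 and 76.2 to 90.7 elsewhere), *Dbh* by 4.31-fold and *Slc6a2* by 2.80-fold over the next mouse, and 11M was second for both. 13M and 12M were lowest, with 0 counts of *Dbh* and 6 and 16 counts of *Slc6a2*. *Dbhos*, on the opposite strand, covers 311 exonic bases of *Dbh* and had at most 2 counts in any library.

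Markers of the locus coeruleus were present in traces. *Phox2a*, a factor that defines noradrenaline neurons, was at most 0.0775 CPM, in 7F. *Gal*, which encodes galanin, was highest in 7F at 0.633 CPM (0.0592 to 0.284 elsewhere), whereas *Tfap2b*, which cerebellar interneurons also express, ranged from 44.8 to 61.7 CPM. *Slc18a2*, the vesicular monoamine transporter, was named after its values were seen and stood at 6.98 CPM in 7F and 5.36 in 11M, against 0.256 to 1.53 in the other mice. Of the 4 midbrain dopamine markers, *Aldh1a1*, a retinaldehyde dehydrogenase, was at 189 CPM in 12M and 199.7 to 241 CPM in the others, whereas *Pitx3*, *Foxa1* and *Foxa2* were at most 0.117 CPM and above 0.05 CPM in no mouse except 32M, and the part of any of these cells in *Dbh*, *Slc6a2* or *Th* was not tested.

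Between genotypes, none of the 10 genes changed by edgeR's quasi-likelihood test at an adjusted p under 0.05, where 0.0178% of all 22423 genes tested were called, and none by DESeq2, which called 7.49% of all genes and gave *Slc6a4* no p. At an unadjusted p under 0.05 there were 4 of 10 (*Slc5a7*, *Slc18a3*, *Slc6a4* and *Tph2*), where 20.2% of all genes passed, and by DESeq2 2 of 9, where 13.8% did. In none of the 10 were the genotypes free of overlap, as they were for 11.6% of all genes. The fitted fold change was above 0 for 7 genes and below 0 for 3, with a median log2 fold change of 1.82 against -0.02 over all genes tested.

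The fitted log2 fold change (*Atm*-KO over *Atm*-WT, ± SE) was 2.71 ± 1.0 for *Slc18a3* (adjusted p = 0.176), 1.94 ± 0.71 for *Slc5a7* (0.169) and 1.92 ± 0.97 for *Chat* (0.294). It was 2.45 ± 0.96 for *Slc6a4* (adjusted p = 0.189), 1.08 ± 0.48 for *Tph2* (0.234), 2.04 ± 1.2 for *Dbh* (0.347) and 1.72 ± 1.0 for *Slc6a2* (0.363). It was -0.34 ± 0.59 for *Slc17a6* (adjusted p = 0.786), -0.31 ± 0.19 for *Th* (0.375) and -0.03 ± 0.098 for *Slc6a5* (0.906), all by edgeR. The errors were largest for *Dbh*, *Slc18a3*, *Slc6a2*, *Chat* and *Slc6a4*, and *Tph2*, though scarce, had a smaller error than *Slc17a6*. *Chat*, *Slc18a3*, *Slc6a4* and *Dbh* had 0 counts in some libraries, and DESeq2 gave 1.93, 2.75, 2.46 and 2.02 for them. These values rest on few counts, and how far they depend on the prior count was not tested.

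Single mice set several of these values. Without 11M the log2 fold change was 0.64 for *Slc6a4* and 0.32 for *Tph2*, and without 7F it was 0.31 for *Dbh* and 0.43 for *Slc6a2*. With sex as a term, which rests on 7F as the 1 female, it was 0.29 for *Dbh* (edgeR adjusted p = 0.897) and 0.41 for *Slc6a2* (0.832). Without 12M it was 0.05 ± 0.16 for *Slc17a6* (edgeR adjusted p = 0.919), and the sign turned. *Slc5a7* without 12M was at 2.33 ± 0.43 (adjusted p = 0.120), and *Slc18a3* at 3.12 ± 0.74 (0.181). When each mouse was left out in turn, *Chat* ranged from 1.44 (without 11M) to 3.39 (without 32M) and *Slc18a3* from 2.24 (without 7F) to 3.77 (without 32M). None of the 10 genes was called by edgeR without 12M, where 0.0263% of 22844 genes were, and 7 had an unadjusted p under 0.05, where 14.2% of all genes did.

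**Figure D4:**
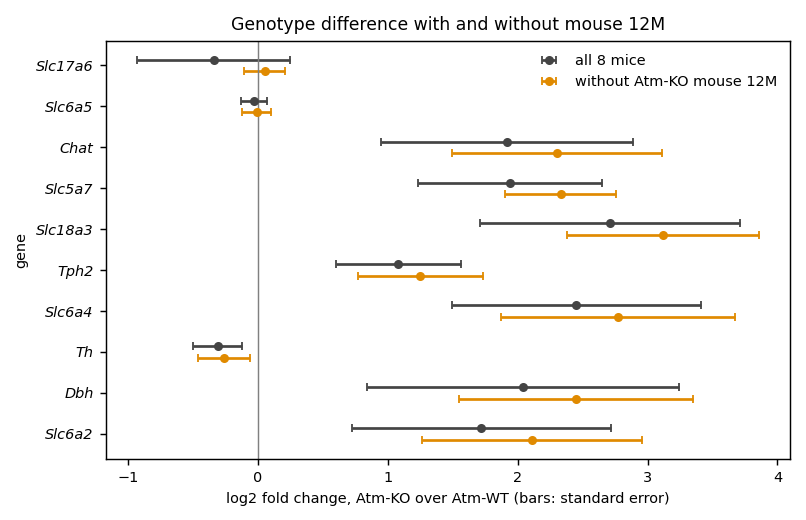
Fitted log2 fold change of *Atm*-KO over *Atm*-WT (horizontal axis, points, with bars of 1 SE) of the 10 transmitter genes by edgeR, over all 8 mice and without 12M. *Slc17a6* moves from -0.34 to 0.05 and loses most of its error, *Slc6a5* stays near 0, and *Chat*, *Slc18a3*, *Slc6a4*, *Dbh* and *Slc6a2* keep wide errors.

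Like *Slc17a6*, the 137 genes that were low in 12M changed their fitted difference when that mouse was left out. Their median log2 fold change was -0.28 and 121 of them were lower in *Atm*-KO, and without 12M the median was 0.08 and 48 were lower. They were chosen on their low values in 12M, which fixes this turn, so their genotype difference is a description with no test.

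Of 148 related genes in the pathway and cell type lists, 106 were tested. None was called by edgeR, 16 had an unadjusted p under 0.05, and DESeq2 called 5 of 106, where it called 7.49% of all genes. Their median log2 fold change was -0.17, against -0.02 over all genes. In the lists named for a pathway, 1 of 13 glutamate and glycine genes, 1 of 18 acetylcholine genes, 5 of 13 genes of monoamine synthesis, storage and breakdown, 0 of 10 serotonin receptors and 2 of 14 adrenergic and dopamine receptors had an unadjusted p under 0.05, which 20.2% of all genes did. Their medians were -0.12, -0.15, -0.27, -0.22 and -0.24, and without 12M -0.04, 0.09, -0.17, -0.01 and -0.06. Among the cell type lists, the counts were 0 of 5 deep nuclei markers (median -0.48, without 12M -0.24), 3 of 6 oligodendrocyte markers (-0.23 and -0.13), 2 of 4 choroid plexus markers (-0.55 and -0.71), 1 of 5 Purkinje cell markers (-0.11 and -0.16) and 0 of 5 granule cell markers (0.04 and -0.04). *Eomes*, the 1 marker of unipolar brush cells, was at 13.2 to 27.2 CPM in the *Atm*-WT libraries and 10.1 to 14.1 CPM among the *Atm*-KO ones (log2 fold change -0.80, edgeR adjusted p = 0.102). None of the raphe, locus coeruleus, midbrain dopamine, motor neuron or Golgi cell markers tested had an unadjusted p under 0.05.

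Receptors of the transmitters varied among mice with *Slc17a6* in part. *Htr1a*, a serotonin receptor named after its values were seen, was at 0.148 CPM in 12M and 3.62 to 7.70 elsewhere, with 11M and 32M the highest. *Htr2c* was at 22.8 CPM in 12M against 31.4 to 55.9, *Chrm2* at 8.10 against 20.3 to 32.7, and *Chrna4* at 3.51 against 9.25 to 18.5. The adrenergic receptors *Adra1a*, *Adra2a* and *Adra2c* were also lowest in 12M, at 58.7% to 70.0% of the median of the other mice, and the dopamine receptor *Drd2*, named after its values were seen, was at 0.622 CPM against 4.09 to 5.47. By contrast *Htr1b* was at 32.2 CPM in 12M (29.5 to 37.5 elsewhere), *Chrnb2* at 132 (107 to 129) and *Adrb1* at 5.49 (4.30 to 6.03).

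The 5 related genes that DESeq2 called, all lower in *Atm*-KO, were *Pts*, *Eomes*, *Chrna3*, *Slc32a1* and *Maob*, and they were named after their values were seen. As a share of the related genes they were no more than the background, and their values are a description. *Pts*, an enzyme that makes the tetrahydrobiopterin needed by *Th* and *Tph2*, was at 13.4, 11.3, 8.97 and 13.2 CPM in *Atm*-WT and 5.78, 5.74, 6.19 and 7.30 CPM in *Atm*-KO mice. Its genotypes did not overlap, and its log2 fold change was -0.90 (edgeR adjusted p = 0.0877, DESeq2 2.6e-06). *Chrna3*, a nicotinic receptor subunit, ranged from 1.90 to 3.71 CPM in *Atm*-WT and from 0.444 to 1.40 CPM in *Atm*-KO libraries (adjusted p = 0.127 by edgeR and 0.0151 by DESeq2). *Pts* lies 2.91 Mb and *Chrna3* 1.47 Mb from *Atm* on chromosome 9, where sequence that came with the targeted allele and the genotype cannot be told apart.

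The summed level of 27 Hox genes, which mark hindbrain behind the cerebellum, was used as a measure of position that the 10 genes do not share. No Hox gene passed the filter, 7 were at 0 in every mouse, and their counts summed to 18 to 92 a library, with 2M the highest. Against log2 of that sum over the 8 mice, Pearson r was 0.24 for *Slc17a6* (exact permutation p = 0.555, adjusted over 4 relations 0.555) and Spearman rho 0.17 (exact p = 0.703, adjusted 0.703). For *Slc6a5* r was 0.69 (exact permutation p = 0.0629, adjusted 0.252) and rho 0.74 (exact p = 0.0458, adjusted 0.183). For the summed acetylcholine genes r was 0.24 (exact permutation p = 0.549, adjusted 0.555) and rho 0.24 (exact p = 0.582, adjusted 0.703), and for *Tph2*, *Slc6a4*, *Dbh* and *Slc6a2* together r was 0.36 (exact permutation p = 0.381, adjusted 0.555) and rho 0.45 (exact p = 0.267, adjusted 0.535). Leaving out 2M and 7F, the mice farthest from the median Hox level, r was 0.23, 0.55, 0.13 and 0.64 over 6 mice, and on deviations from the genotype means 0.18, 0.69, 0.40 and 0.54. No relation passed the adjustment. With 8 mice and so few Hox counts, a weak relation could not be told from none. The sum marks only hindbrain behind the cerebellum, so it is no measure of other brainstem or midbrain tissue.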

How the data were processed

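RNA of frozen cerebellum was sequenced by Illumina HiSeq. The authors inspected the reads with FastQC 0.11.9, mapped them to GRCm39 (STAR), assigned them to genes (featureCounts) and deposited the raw counts, not normalized. Strand and pair settings are not given in the sources used here. Of 56691 gene identifiers, 56017 matched GENCODE vM39.

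Groups followed the genotype in the labels, which give no batches. Genes kept by filterByExpr (22423) were TMM-scaled and compared by quasi-likelihood (glmQLFit, glmQLFTest) in edgeR 4.0.16 in R 4.3.3, without covariates and two-sided, with Benjamini-Hochberg adjustment over all genes and a threshold of 0.05. DESeq2 1.42.0, the tool of the study, was an alternative. The common dispersion was 0.0404. The fit was tested on simulated data. CPM used TMM factors, and log2 CPM a prior count of 2. Genes far below all other mice had a mean of at least 1 CPM in the other 7 mice. Genes far above all other mice had at least 1 CPM in the mouse itself.

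The members and lists were chosen with earlier results of these data known. Named genes were the 10 members, up to 4 genes of highest mean CPM of each list, and the 5 genes most like *Slc17a6* and *Slc6a5*. Others are marked as named after their values were seen, or are defining markers of the lists. Promoter windows were read from the GRCm39 genome. The values of a few listed genes are not reported here singly, and these genes stay in the counts and medians of their lists.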

Additional observations from a re-analysis of the deposited data

Results flagged for a closer look

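In 4 of 44 groups of 4 mice, 1 mouse lay far from the other 3 of its genotype by Dixon's criterion. Chance flags about 1 in 20 groups, but the high *Slc17a6* level of 32M was known when the genes were chosen, so the number of groups is a description and is not set against chance. *Slc17a6* was at 116 CPM in *Atm*-WT 32M, above 73.6 to 75.9 in the other *Atm*-WT mice. *Tph2* was at 4.32 CPM in *Atm*-KO 11M, above 1.02 to 1.21 in the other *Atm*-KO mice, and *Slc6a4* was at 3.53 CPM in the same mouse, above 0.266 to 0.387. The summed oligodendrocyte markers were at 1926 CPM in *Atm*-KO 12M, below 3056 to 3287 in the other *Atm*-KO mice.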

How the results depend on the processing

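No paired analysis was possible because the genotypes share only the number 7 in their labels. Of 135 alternative values of the log2 fold changes of the 10 genes, 129 kept their direction and their side of the threshold, 1 kept its direction with no adjusted p (*Slc6a4*, DESeq2) and 5 changed sign, all of the latter for *Slc17a6* or *Slc6a5*. *Slc17a6* was at 0.05 without 12M (lowest when a mouse was left out -0.65). *Slc6a5* was at 0.02 with library size alone, and between -0.11 and 0.03 when a mouse was left out, with 0.02 without 2M and 0.0001 without 7M. None of the 10 genes was called under the alternatives in which it was tested. With at least 10 counts in every library *Chat*, *Slc18a3*, *Slc6a4*, *Dbh* and *Slc6a2* were not tested. Over all genes, 4 were called by edgeR, 1552 by DESeq2 and 591 without the filter on low counts, and 1 to 27 when a mouse was left out, with 27 without 13M, 10 without 32M, 2 without 7M and 1 without 2M, 1M or 11M. Of the related genes 0 were called by edgeR, 5 by DESeq2, 3 without the filter and 0 to 1 when a mouse was left out (*Pts*, without 13M). The relation of *Slc17a6* to the Hox level was -0.12 without 12M and 0.35 without 1M. Leaving out a mouse, r ranged from 0.56 to 0.82 for *Slc6a5*, from 0.04 (without 7F) to 0.43 (without 2M or 1M) for the acetylcholine genes, and from 0.09 (without 7F) to 0.81 (without 2M) for the serotonin and noradrenaline genes. With 5-fold in place of 3-fold, chosen after seeing the data, 82 genes were below every other mouse in 12M. The cause of these changes was not tested. With 4 mice a genotype and counts under 100 for most libraries in *Chat*, *Slc18a3*, *Slc6a4* and *Dbh*, small differences in these genes were not detectable at this depth.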
